A study of Homo sapiens with 2 samples.

Results

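RAB genes encode small GTPases that direct membrane traffic. Here 61 RAB symbols were measured in 2 libraries of HCT116, an established human line of colon cancer cells. The genes were chosen by name: every symbol made of RAB, a number and at most one letter from A to D, in both deposited tables. This gave 61 of 51609 symbols with a value in each library. Of these 61, 60 are protein-coding in GENCODE release 29, and RAB1C is listed there as a processed pseudogene. Both libraries, PF and PJ by title, form a single group of HCT116 cells kept in medium with serum and no stated treatment, which the submitters call biological replicates. What the letters stand for is not stated in the labels. The design text also names normal colon samples, which were not analysed here, so no cancer cell level was set against normal tissue.

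A RAB protein cycles between a GDP-bound form held in the cytosol and a GTP-bound form on one particular membrane, where it recruits effectors such as tethers, motor proteins and sorting factors. Guanine nucleotide exchange factors (GEFs) load GTP, GTPase-activating proteins (GAPs) end the signal, and the GDP dissociation inhibitors extract the protein for another round. In epithelial cells, RABs of the RAB11, RAB8 and RAB10 branches carry receptors and junction proteins to the apical and basolateral surfaces.

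Levels are FPKM, fragments counted per unit of transcript length and per unit of library size, with the authors' lower and upper bounds, taken as 95%. Because FPKM is per length, levels of different genes can be set side by side. How many fragments each library held is unknown. These bounds cover the fit inside one library and hold nothing on how cultures vary. With 1 library on each side, a difference between PF and PJ has no replicate check, and no p-value was computed anywhere. The libraries were not alike in cell markers. All 6 epithelial markers checked reached 1 FPKM in both libraries, but they summed to 1551 FPKM in PF against 908 in PJ. Of these, KRT8, CLDN4 and CDH1 were at least 2-fold lower in PJ. VIM, the intermediate filament gene of mesenchymal cells, was at 4.91 FPKM in PF against 126 in PJ. Markers of other cell types were low: the summed fibroblast list was at 7.46 FPKM in PF against 3.29 in PJ with 1 of 6 genes (COL1A1) at 1 FPKM or more in both, and the immune list was at 0.618 and 1.73 with 0 of 6. The 4 endothelial markers measured summed to 0.245 and 0.148 FPKM, and the 5 neuronal markers to 1.36 and 1.52. LUM and MS4A1 were listed at 0 in PJ and under 0.001 FPKM in PF. The part of these marker differences in the RAB results was not tested.

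HCT116 cells carried transcripts of most of the RAB family. Taking 1 FPKM in each library as the limit for expression, 48 of 61 RAB genes passed, or 78.7%, against 27.9% of all symbols and 57.3% of protein-coding symbols. The 48 include the pseudogene RAB1C. Another 12 were under 1 FPKM in both libraries, and RAB34 passed in PJ alone. No RAB estimate had failed in either table. The median RAB level was 7.34 FPKM in PF against 9.001 in PJ, above the medians of protein-coding symbols (3.25 and 3.92). Among expressed genes the order was the other way: the 48 RAB genes had medians of 11.7 and 14.5 FPKM, and the 10907 expressed protein-coding symbols 13.8 and 16.4. Of the 61 genes, 24 reached 10 FPKM in both libraries, 7 reached 50 and 2 reached 100.

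**Figure D1:**
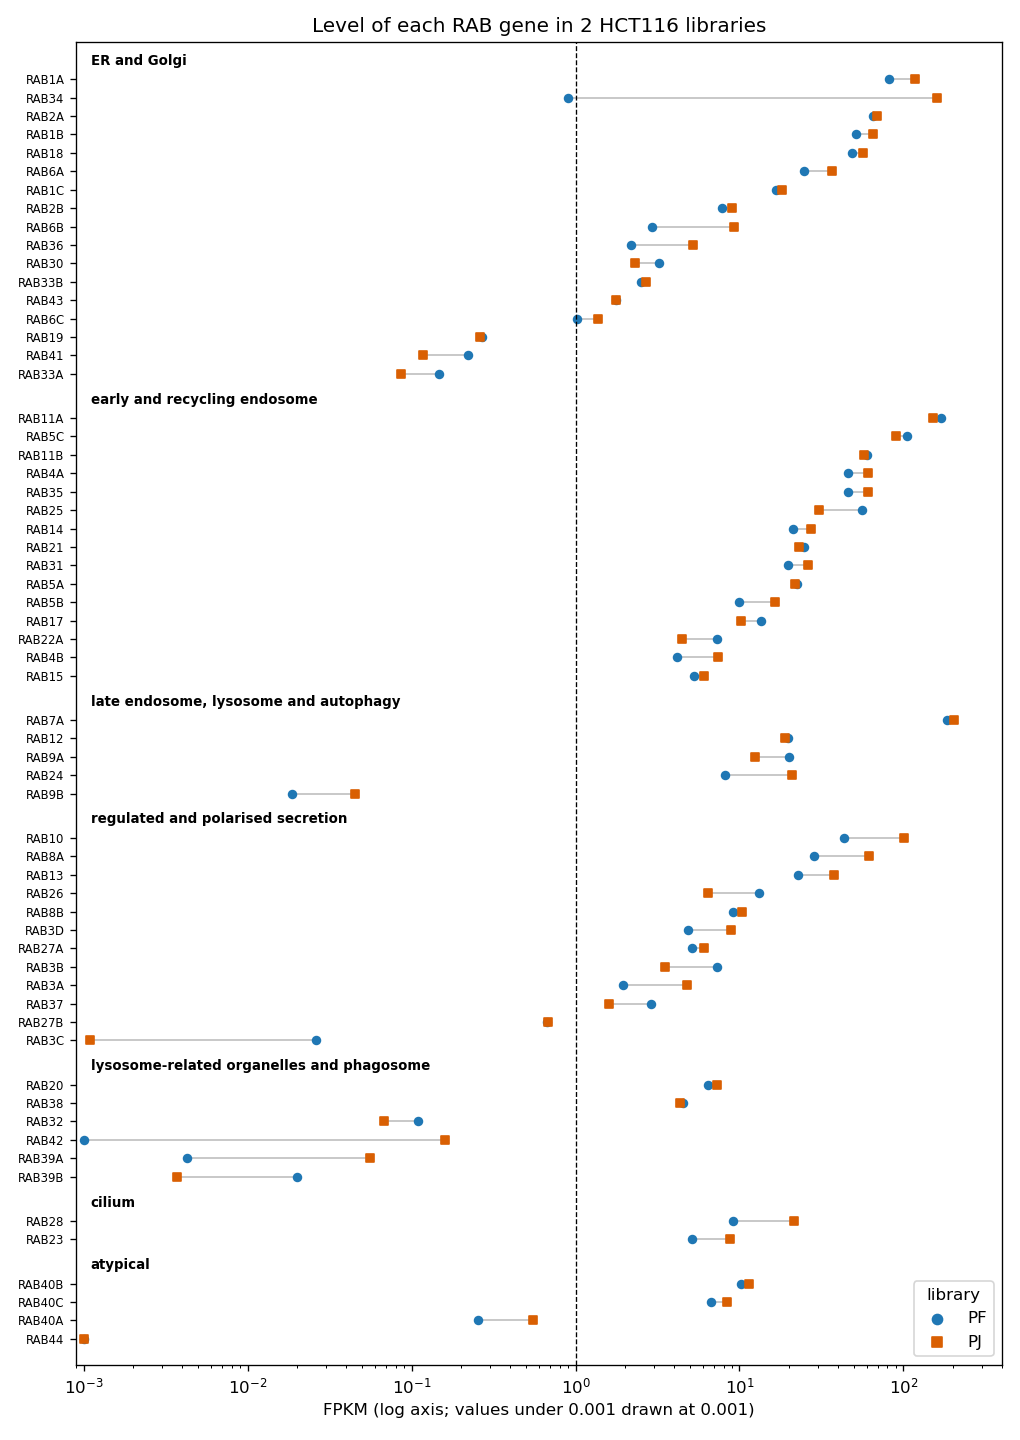
Level of each of the 61 RAB genes in FPKM (log axis) in library PF (circles) and library PJ (squares), grouped by the membrane each is known for; the line joins the 2 values and the dashed line marks 1 FPKM. Most pairs lie close together, while RAB34 runs from 0.900 to 160 FPKM; values under 0.001 are drawn at 0.001.

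RAB7A, which drives the traffic from late endosomes to lysosomes, had the highest mean. It was at 185 FPKM in PF against 205 in PJ, above 97.9% and 97.8% of protein-coding symbols, although both estimates lay over their own upper bounds (160 and 181). RAB11A, the RAB of recycling endosomes, followed at 169 FPKM in PF (bounds 162 to 178) against 152 in PJ (145 to 160). Except for RAB34, which reached 160 FPKM in PJ, every other RAB gene was below these 2 in both libraries. Further down, neighbours in the order of means mostly overlapped: for 40 of the 48 expressed RAB genes, the range over PF and PJ reached that of the next lower gene. The order of such neighbours therefore does not exceed the spread between the libraries.

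The RABs of the early and recycling endosome were expressed in full, 15 of 15. Their summed FPKM was 610 in PF against 596 in PJ, or 45.7% and 34.8% of all RAB transcripts on this scale. RAB5C, one of 3 paralogs that govern early endosome fusion, was at 105 FPKM in PF against 90.4 in PJ. Its paralogs RAB5A (22.3 and 21.8, both estimates over their own bounds) and RAB5B (9.89 and 16.4) were lower in each library. RAB11B, a close relative of RAB11A, was at 60.3 FPKM in PF against 57.4 in PJ. RAB25, the member of the RAB11 branch that is restricted to epithelia, was at 55.7 FPKM in PF (52.5 to 59.1) against 30.5 in PJ (28.2 to 33.0). RAB11B and RAB25 thus stood at nearly the same level in PF but apart in PJ. RAB4A, of the fast recycling route, was at 46.1 and 61.1 FPKM with both estimates over their own bounds, and RAB4B at 4.18 and 7.35. RAB35, which acts in recycling to the plasma membrane, was at 46.1 and 61.2 FPKM. RAB14, RAB21, RAB31 and RAB17 ranged between 10.2 and 27.4 FPKM over both libraries; RAB17, like RAB25, is known from epithelial cells, and its PF estimate of 13.6 lay over its own upper bound (13.4). RAB22A (7.26 and 4.43) and RAB15 (5.27 and 6.06) were the lowest of the 15 together with RAB4B.

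Of 17 genes assigned to the endoplasmic reticulum and Golgi, 13 were expressed in both libraries. RAB1A and RAB1B act between the endoplasmic reticulum and the Golgi. RAB1A was at 81.4 FPKM in PF (78.1 to 85.4) against 118 in PJ (114 to 123), and RAB1B at 51.5 and 65.4. RAB2A, of Golgi and lysosomal delivery, differed little, with 65.1 FPKM in PF against 68.9 in PJ, and its paralog RAB2B was at 7.79 and 9.001. RAB18, known from the endoplasmic reticulum and lipid droplets, was at 48.3 and 56.8 FPKM. RAB6A, which sends vesicles from the Golgi, was at 24.6 and 37.0 FPKM, ahead of RAB6B, a paralog known best from neurons, at 2.93 and 9.28. RAB6C, an intronless copy of RAB6A, was at 1.02 and 1.37 FPKM. RAB30, RAB33B and RAB43 lay between 1.76 and 3.23 FPKM, while RAB19, RAB41 and RAB33A were at most 0.269 FPKM in either library. The symbol RAB1C stood at 16.6 FPKM in PF against 18.3 in PJ. GENCODE release 29 lists it as a processed pseudogene, the tables mark its status LOWDATA, and its value is uncertain because 15.6% of its stretches of 50 bases also occur in RAB1B.

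Among the late endosomal, lysosomal and autophagic RABs, 4 of 5 were expressed. Besides RAB7A these were RAB12 (19.7 FPKM in PF against 18.9 in PJ), RAB9A (20.2 and 12.5), which recycles cargo from late endosomes to the Golgi, and RAB24 (8.18 and 20.9), which is tied to autophagy. RAB9B, the paralog of RAB9A, was at 0.0186 and 0.0450 FPKM.

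RABs of regulated and polarised secretion were expressed in 10 of 12 cases. RAB10 and RAB8A, which carry vesicles to the surface of polarised cells, led with 43.6 and 28.3 FPKM in PF against 101 and 61.4 in PJ. RAB13, known from tight junctions, was at 22.7 and 37.5 FPKM, and RAB8B at 9.19 and 10.3. The RAB3 genes, best known from synaptic and endocrine vesicles, were low and unequal. RAB3B was at 7.34 FPKM in PF against 3.51 in PJ, RAB3D at 4.89 and 8.85, RAB3A at 1.94 and 4.80, and RAB3C at 0.0262 and 0.00109. RAB27A, of melanosomes and exosome release, was at 5.12 and 6.10 FPKM and its paralog RAB27B at 0.666 and 0.680. RAB26 (13.1 and 6.41) and RAB37 (2.90 and 1.61), both linked to secretory granules, were lower in PJ.

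Genes of lysosome-related organelles and phagosomes were mostly under 1 FPKM. Of 6, RAB20 (6.44 FPKM in PF against 7.28 in PJ) and RAB38 (4.52 and 4.35), the latter a melanosome RAB, were expressed. RAB32, its paralog, was at 0.110 and 0.0683 FPKM. RAB39A, RAB39B and RAB42 were at most 0.161 FPKM in either library. Melanocyte markers were low in the same libraries: PMEL was at 2.85 and 2.70 FPKM and TYR at 0.000188 and 0.000193. The ciliary RABs RAB28 (9.10 and 21.6 FPKM) and RAB23 (5.16 and 8.77) were both expressed. Of the atypical members, RAB40B (10.2 and 11.4, both estimates over their own bounds) and RAB40C (6.73 and 8.35), which serve ubiquitin ligases, were expressed, RAB40A was at 0.253 and 0.553 FPKM, and RAB44, a large RAB of immune cells, was listed at 0 in PJ and at 1.27e-102 in PF.

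Within most subfamilies a single paralog supplied most of the transcripts. Of 18 subfamilies with 2 or more measured genes, 15 had the same leading gene in both libraries, and in 14 the lower value of the leader exceeded the higher value of the next gene. In the RAB9, RAB32 and RAB33 groups the leader held 90% or more of the summed FPKM in both libraries: RAB9A held 99.9% and 99.6%, RAB38 97.6% and 98.5%, and RAB33B 94.4% and 96.9%. RAB2A held 89.3% and 88.4% of its pair, RAB27A 88.5% and 89.97%, and RAB4A 91.7% and 89.3%. In contrast, the transcripts of the RAB11, RAB1, RAB40 and RAB8 groups were spread over several paralogs, with RAB11A at 59.3% and 63.3% and RAB10 at 42.0% and 48.0%. The leader changed between libraries in 3 groups. RAB3B led in PF and RAB3D in PJ, RAB36 led in PF and RAB34 in PJ, and the third was the RAB39 group, whose members were all under 1 FPKM.

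**Figure D2:**
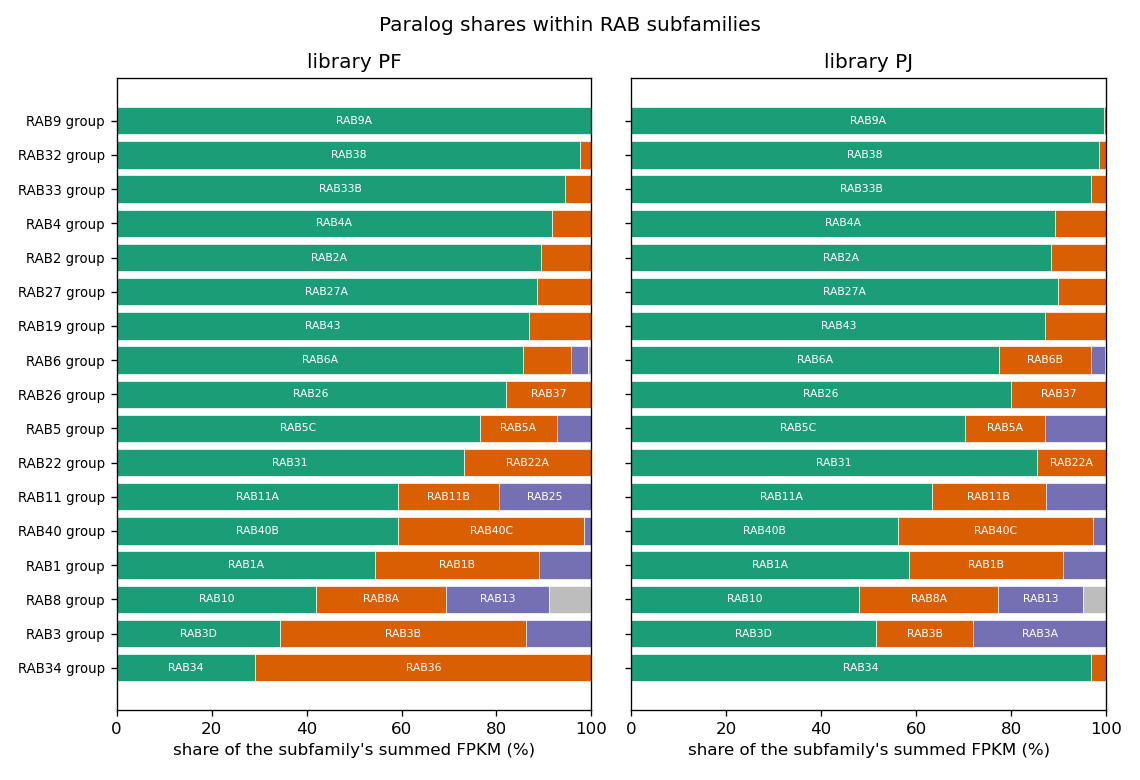
Share of each paralog in the summed FPKM of its subfamily (in percent), in PF on the left and PJ on the right; colours give the order by mean level, and the RAB39 group, under 1 FPKM throughout, is left out. RAB34 makes up 29.2% of its pair in PF and 96.9% in PJ, while RAB9A and RAB38 hold at least 97.6% of theirs in both.

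A gene was counted as different at 2-fold on the scale of log2(FPKM + 1), which understates the change of low genes; only symbols whose mean reached 1 FPKM entered. Of 49 RAB genes with that mean, 6 exceeded 2-fold in favour of PJ, or 12.2%, against 10.4% of all 15736 symbols tested. None was at least 2-fold lower, against 5.22%. The share of higher genes is near the background. Values in PJ ran higher in general: over expressed symbols the median ratio was 1.19, or 0.25 in log2. With this ratio divided out, the split was 3 higher (RAB34, RAB24 and RAB6B) and 3 lower (RAB25, RAB26 and RAB3B), beside 6.22% and 7.24% of all symbols. In log2, the median ratio came to 0.19 for the RAB genes and 0.22 for all symbols tested. The authors' bounds were apart with PJ higher for 22 of the 49 RAB genes (44.9%, against 44.5% of symbols) and with PF higher for 9 (18.4%, against 18.2%). By these counts the RAB family differed between the libraries about as often as other expressed genes.

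**Figure D3:**
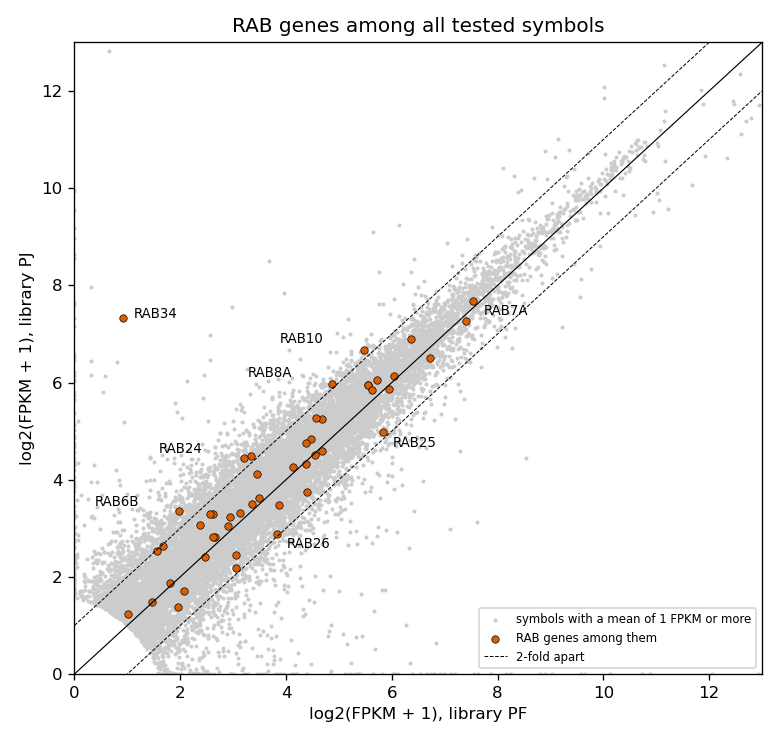
log2(FPKM + 1) in PF (horizontal) and PJ (vertical) for symbols whose mean reached 1 FPKM (grey) and the 49 RAB genes among them (orange); the solid line marks equal values and the dashed lines 2-fold differences. RAB34 lies far above the other RAB genes, which follow the cloud; symbols beyond a log2 value of 13 are not drawn.

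RAB34 had the largest difference of the 49. It encodes a RAB of the Golgi and of macropinosomes that also acts at an early step of cilium assembly. RAB34 (ENSG00000109113.13; hg19, chromosome 17, 27041299 to 27045447) was at 0.900 FPKM in PF (bounds 0.605 to 1.58) against 160 in PJ (155 to 165). The estimate in PJ was 178 times that in PF, a log2 ratio of 6.41 with 1 FPKM added, which ranked 17 from the top among the 15736 symbols. In PF it was above 39.9% of protein-coding symbols, and in PJ above 97.1%. No stretch of 50 bases of its longest transcript occurs in a transcript of another gene in GENCODE release 29. Its neighbours did not differ to that extent. RPL23A, a ribosomal protein gene that begins 964 bp beyond RAB34, was at 202 FPKM in PF against 249 in PJ, and PROCA1, 2427 bp away on the other side, at 0.293 and 0.259. TLCD1, 5919 bp away, was at 14.6 and 36.7 FPKM. RAB36, the paralog of RAB34, was at 2.18 FPKM in PF (1.86 to 2.50) against 5.20 in PJ (4.74 to 5.68). RAB34 was one part of the higher RAB total in PJ: the 61 genes summed to 1336 FPKM in PF against 1713 in PJ, and without RAB34 to 1335 and 1553. The Golgi group summed to 310 and 556 FPKM with RAB34, and to 309.6 and 396 without it.

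The sequences before the RAB34 starts are shown because this gene differed most. RefSeq (GRCh38.p14) gives 3 starts on the minus strand, and the 250 bases before the first and the last of them do not overlap. The window of the most upstream start (chr17:28718269-28718518) has 10 CpG dinucleotides, in capitals, and that of the most downstream start (chr17:28717869-28718118) has 16. The tables give 1 value per gene, so the start in use was not measured.
RAB34 upstream start: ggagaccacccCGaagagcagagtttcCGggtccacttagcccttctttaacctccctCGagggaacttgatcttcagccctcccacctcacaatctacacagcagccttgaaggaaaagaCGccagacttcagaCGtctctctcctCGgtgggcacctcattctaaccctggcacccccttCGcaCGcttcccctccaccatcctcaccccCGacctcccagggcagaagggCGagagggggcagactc
RAB34 downstream start: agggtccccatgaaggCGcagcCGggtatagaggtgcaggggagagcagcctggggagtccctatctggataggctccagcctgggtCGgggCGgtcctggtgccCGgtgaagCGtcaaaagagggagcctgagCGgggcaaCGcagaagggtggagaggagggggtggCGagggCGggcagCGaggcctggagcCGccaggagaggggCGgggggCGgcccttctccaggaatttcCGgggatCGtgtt

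The other 5 RAB genes at least 2-fold higher in PJ differed by far less. RAB6B (hg19, chromosome 3, 133543083 to 133614680) had a log2 ratio of 1.39, and the bounds were apart (2.22 to 3.65 FPKM in PF and 8.11 to 10.5 in PJ). It overlaps SRPRB, at 31.9 and 51.3 FPKM, with which it shares 6.10% of its stretches of 50 bases. RAB24 (chromosome 5, 176728199 to 176730745) had a log2 ratio of 1.26, with bounds of 7.08 to 9.29 and 19.1 to 22.8 FPKM. For RAB24, 46.9% of the stretches of 50 bases also occur in MXD3, whose gene overlaps it and which was at 29.3 FPKM in PF against 18.4 in PJ. RAB10 had a log2 ratio of 1.19, and both of its estimates lay over their own upper bounds. RAB28 had 1.16, but its bounds were wide and overlapped (4.90 to 15.03 FPKM in PF and 12.8 to 30.4 in PJ). RAB8A had 1.09, again with both estimates over their bounds, and a gene that overlaps it, CTD-2231E14.8, was at 10.7 FPKM in PF against 33.8 in PJ. Of the RAB8A stretches of 50 bases, 38.9% also occur in other genes, mostly in AC008894.2 (33.2%). The part of overlapping genes in the RAB6B, RAB24 and RAB8A values, or in those of any other RAB gene, was not tested. RAB3A (0.98) and RAB36 (0.96) lay just short of the threshold because of the added 1 FPKM. Their estimates in PJ were 2.47 and 2.39 times those in PF, beside 2.37 for RAB28, 2.31 for RAB10 and 2.17 for RAB8A. The bounds of RAB3A and of RAB36 were apart. RAB3A overlaps MPV17L2, at 18.5 FPKM in PF against 28.5 in PJ, with which it shares 7.84% of its stretches of 50 bases.

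At the other end, RAB26 had a log2 ratio of -0.93, RAB3B of -0.88 and RAB25 of -0.85. Their bounds were apart with PF higher, as were those of RAB11A, RAB5C, RAB9A, RAB17, RAB22A and RAB37. RABs with roles in epithelial cells lay on both sides: RAB25 and RAB17 had the lower value in PJ, and RAB8A, RAB10 and RAB13 the higher. In the same libraries the epithelial markers CDH1 (21.9 FPKM in PF against 1.80 in PJ) and CLDN4 (33.3 and 11.3) were lower in PJ, and KRT19 was at 306 and 325 FPKM.

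**Figure D4:**
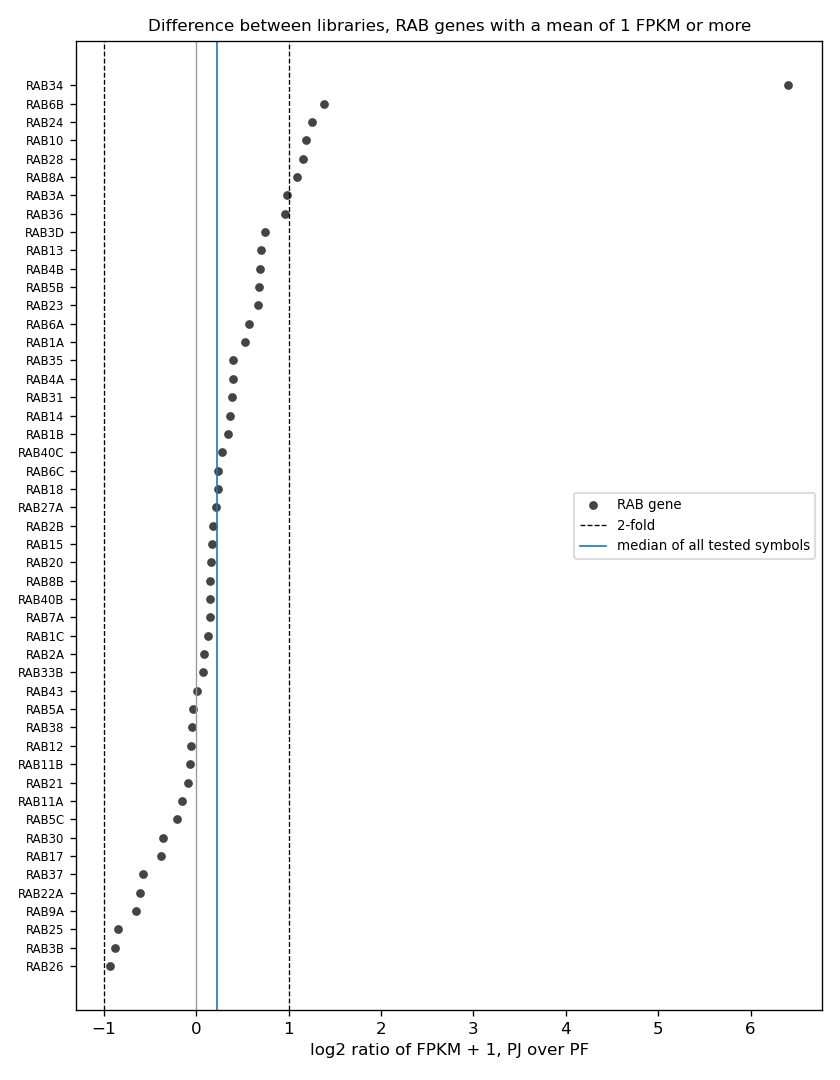
log2 ratio of FPKM + 1, PJ over PF, for the 49 RAB genes whose mean reached 1 FPKM, in order; dashed lines mark 2-fold and the blue line the median of all symbols tested (0.22). Apart from RAB34 at 6.41, the ratios run from -0.93 for RAB26 to 1.39 for RAB6B.

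The promoters of RAB genes were described from RefSeq (GRCh38.p14), which matched 47 of the 61 genes. For genes with several starts the most upstream one was used. In the 250 bases before the start, the count of CpG dinucleotides was divided by the count that the C and G content would give. This ratio was 0.6 or more for 32 of 37 RAB genes expressed in both libraries (86.5%) and for 83.6% of expressed protein-coding symbols. Among RAB genes with a mean under 1 FPKM it was 0.6 or more in 4 of 9 (44.4%), and among such protein-coding symbols in 33.4%. Both shares of RAB genes lay above those of protein-coding symbols of like level, by little among expressed genes, and 9 low genes are few for a share. The 4 low genes with such promoters were RAB32, RAB3C, RAB9B and RAB39A. Conversely, RAB34, RAB13, RAB25, RAB17, RAB22A and RAB3B were at 1 FPKM or more in at least 1 library with ratios of 0.344 to 0.598. For RAB34 this depends on the start: the ratio was 0.486 at the most upstream start, 0.417 at the middle one and 0.610 at the most downstream one. The start also matters for other genes. RAB27A (0.791), RAB30 (0.658) and RAB6A (1.01), counted among the 32, reached 0.6 only at the most upstream start. RAB27B, a low gene with 0.254 at that start, had 0.618 at another. The motif GGGCGG, searched on both strands and itself holding a CpG, was present in 32 of the 37 expressed RAB promoters (86.5%), in 69.9% of expressed protein-coding ones and in 42.2% of all 27305 promoters. The motif CACGTG, its own reverse complement, was present in 5 of the 37 (13.5%), in 9.26% of the expressed protein-coding ones and in 6.46% of all. Of the other motifs searched on both strands, CCAAT was present in 11 of the 37 (29.7%) and in 35.6% of expressed protein-coding promoters, and TATAAA in 1 of the 37 (2.70%) and in 4.86%; over all promoters the shares were 33.0% and 11.2%. A match is a description of the letters and not a binding site.

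**Figure D5:**
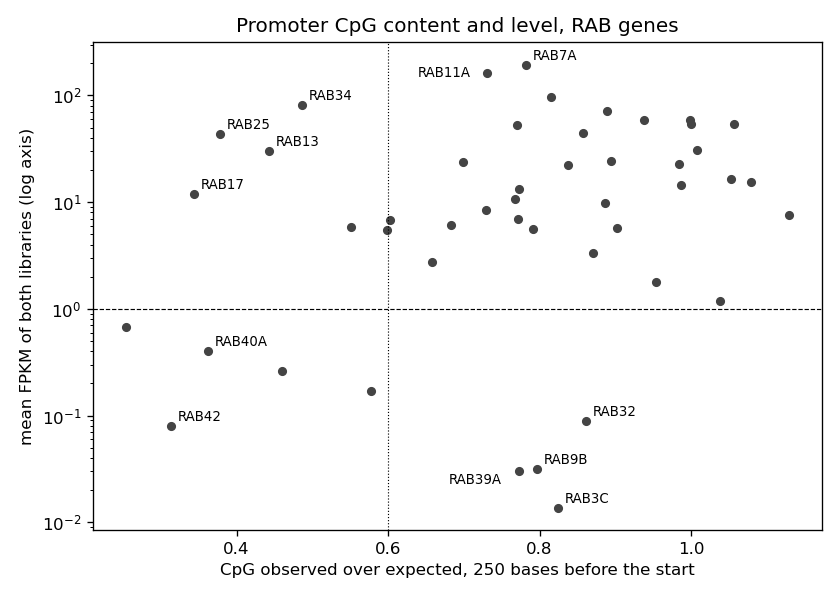
Ratio of observed to expected CpG in the 250 bases before the most upstream RefSeq start (horizontal) and mean FPKM of both libraries (vertical, log axis) for 47 RAB genes; the dotted line marks 0.6 and the dashed line 1 FPKM. RAB32, RAB3C, RAB9B and RAB39A are low with a ratio over 0.6, and RAB25, RAB13 and RAB17 are high with a ratio under it. RAB34 is drawn beside the latter by its mean, but was at 0.900 FPKM in PF and has a ratio of 0.610 at its most downstream start.

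Sequences of both kinds of exception are shown, with each CpG in capitals. RAB32 has 36 CpG in the 250 bases before its start (chr6:146543583-146543832, plus strand) and was at most 0.110 FPKM. RAB25 has 8 (chr1:156060910-156061159, plus strand) and was at 55.7 FPKM in PF against 30.5 in PJ, and RAB17 has 6 (chr2:237590735-237590984, minus strand) and was at 13.6 and 10.2. RAB25 and RAB17 were chosen as exceptions among expressed RAB genes, of which 32 of 37 had a ratio of 0.6 or more. RAB32 is no exception in that sense, since 4 of 9 low RAB genes had such a ratio.
RAB32: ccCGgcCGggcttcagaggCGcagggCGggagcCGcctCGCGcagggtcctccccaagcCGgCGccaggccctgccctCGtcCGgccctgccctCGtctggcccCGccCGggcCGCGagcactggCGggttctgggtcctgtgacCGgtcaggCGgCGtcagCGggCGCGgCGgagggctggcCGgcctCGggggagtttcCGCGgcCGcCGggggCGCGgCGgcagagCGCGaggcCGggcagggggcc
RAB25: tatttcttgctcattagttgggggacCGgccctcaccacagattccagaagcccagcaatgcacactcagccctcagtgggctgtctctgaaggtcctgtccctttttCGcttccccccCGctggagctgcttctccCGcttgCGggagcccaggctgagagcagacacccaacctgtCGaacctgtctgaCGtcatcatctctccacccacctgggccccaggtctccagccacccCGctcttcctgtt
RAB17: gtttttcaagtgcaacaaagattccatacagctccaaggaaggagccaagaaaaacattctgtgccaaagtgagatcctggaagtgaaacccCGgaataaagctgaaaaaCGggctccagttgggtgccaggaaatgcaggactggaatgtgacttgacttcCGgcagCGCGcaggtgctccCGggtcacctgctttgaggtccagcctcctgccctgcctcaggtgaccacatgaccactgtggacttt

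A short list of genes that handle RAB proteins was expressed in full. For comparison, 57.3% of protein-coding symbols were expressed, while PJ was higher by 2-fold or more in 10.4% of symbols tested and lower in 5.22%. Of 10 genes for lipid attachment, membrane extraction and delivery, 10 reached 1 FPKM in both libraries, and 0 of 10 differed at least 2-fold, a list too short to set against those shares. RABGGTB, a subunit of the enzyme that attaches the lipid anchor, was at 126 FPKM in PF against 88.2 in PJ, and its partner RABGGTA at 18.1 and 18.2. The escort protein genes CHM and CHML, which present RABs to that enzyme, were at 5.11 and 1.83 FPKM in PF against 8.15 and 4.30 in PJ. GDI2, a GDP dissociation inhibitor gene, was at 72.9 and 99.7 FPKM, and RABAC1, which helps RABs onto membranes, at 42.9 and 64.2.

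GEF genes were expressed in 35 of 38 cases. Of 36 tested, 2 were at least 2-fold higher in PJ, against 10.4% of all symbols tested, and 2 lower, against 5.22%. CCZ1B and CCZ1 led at 54.2 and 38.7 FPKM in PF against 67.7 and 52.7 in PJ, with both CCZ1 estimates over their own bounds. CCZ1B and CCZ1 are near-identical copies of a subunit that activates RAB7, and their separate values are uncertain. HPS1, part of the exchange factor for RAB32 and RAB38, was at 41.5 and 29.6 FPKM, beside RAB32 at 0.110 and 0.0683. ANKRD27, an exchange factor for RAB21 that also binds RAB32 and RAB38, was at 6.48 and 24.6 FPKM, and RAB3IL1, for RAB8 and RAB3A, at 5.27 and 12.01. DENND5B (20.5 and 7.60) and RINL (9.71 and 1.41) were lower in PJ, with both PF estimates over their own upper bounds (19.5 and 8.81). DENND2A was the lowest of the list, at 0.144 and 0.0910 FPKM.

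GAP genes were expressed in 33 of 34 cases. Of 33 tested, 2 were higher in PJ by that measure, against 10.4% of all symbols tested, and 2 lower, against 5.22%. TBC1D9B (43.1 and 46.2 FPKM), TBC1D14 (28.8 and 31.0) and TBC1D15 (28.5 and 24.7), which acts on RAB7, had the highest means and differed little. TBC1D1, which acts on RABs of glucose transporter traffic such as RAB10, was at 36.2 FPKM in PF against 6.58 in PJ, and TBC1D8 at 18.01 and 6.19. TBC1D10B, which acts on RAB35 and RAB27A among others, was at 13.1 and 30.6 FPKM, and TBC1D13, also for RAB35, at 5.17 and 11.8. TBC1D10C was the lowest, at 4.7e-169 and 4.92e-281 FPKM.

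Of 46 effector genes, 40 were expressed in both libraries. Of 42 tested, 6 were higher in PJ by 2-fold or more, against 10.4% of all symbols tested, and 3 lower, against 5.22%. Both are near the background. USO1, a tether that RAB1 recruits, had the highest mean with 19.6 FPKM in PF against 34.0 in PJ, followed by the exocyst gene EXOC6 at 21.2 and 13.9 and RABEP1, a RAB5 effector, at 10.99 and 24.05. The largest difference was in MLPH, which links RAB27A to a myosin motor, at 17.1 FPKM in PF against 0.144 in PJ. The other RAB27 effectors of the list went both ways. SYTL2 (6.78 and 22.3 FPKM), SYTL3 (9.11 and 20.9) and RPH3AL (3.26 and 7.70) were at least 2-fold higher in PJ. UNC13D (3.32 and 4.05) and SYTL5 (0.0310 and 0.0332) had a slightly higher value in PJ. SYTL1 (7.34 and 3.55), SYTL4 (7.66 and 3.71), EXPH5 (2.63 and 2.06), MYRIP (0.298 and 0.183) and RPH3A (0.137 and 0.103) had the lower value there. Bounds overlapped for UNC13D, SYTL5, SYTL4, MYRIP and RPH3A. RAB27A itself had a log2 ratio of 0.21. For RAB11, RAB11FIP2 was at 18.4 and 7.02 FPKM and RAB11FIP3 at 4.32 and 10.8, while RAB11A had a log2 ratio of -0.15. The RAB11FIP2 estimate in PF lay over its own upper bound (14.5). MICALL2, which binds RAB13 at junctions, was at 16.6 and 7.35 FPKM. RIMS1, a RAB3 effector of synapses, was the lowest at 0.00113 and 0.00353. The median log2 ratio was 0.55 for the 10 attachment and extraction genes, 0.21 for GEFs, 0.10 for GAPs and 0.05 for effectors, beside 0.22 for all symbols tested.

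How well single RAB genes can be told apart bears on these levels. For 27 of the 61 genes no stretch of 50 bases in the longest transcript occurs in another gene, and for 45 under 10% of stretches do. In 4 genes 50% or more are shared: RAB43 with a readthrough transcript (ISY1-RAB43), RAB4B with readthrough genes (MIA-RAB4B and RAB4B-EGLN2), RAB6C with RAB6D and RAB6A, and RAB23 with its neighbour BAG2. The values of these 4 are uncertain for that reason. Of the 61 genes, 20 overlap another gene whose mean reached 1 FPKM, among them RAB3A, RAB3D, RAB5B, RAB6B, RAB8A and RAB24. Whether the authors' counting used strand is not stated in the labels, so reads of overlapping genes on opposite strands may not have been separated. RAB4B and RAB5C each had a second row under the same symbol, a readthrough or overlapping gene in GENCODE release 29, that added at most 0.128 FPKM.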

How the data were processed

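RNA of 2 HCT116 libraries was sequenced as paired ends. TopHat2 2.0.8b, TopHat, Cufflinks and the hg19 genome are listed in the submitters' processing notes; for the Cufflinks version, annotation release and strand setting the answer is "not given in the sources used here". Per the file headers, the authors deposited a status and an FPKM value per gene, with its lower and upper bounds. The headers do not give the level of the bounds, which was taken as 95%. Since FPKM is scaled to the total, a rise in some highly abundant RNAs lowers every other value. Each table has 56586 rows. Status FAIL (23 rows in PF, 20 in PJ) was treated as missing, and rows sharing a symbol were summed. Depth is unknown.

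Expression was called at 1 FPKM in PF and PJ alike. Log2 ratios of PJ over PF used a pseudocount of 1, for symbols whose mean reached 1 FPKM. The calculation was run on simulated data with planted changes well beyond 2-fold and no shift between libraries. That run checks the code and cannot show how the calls perform on these libraries. Protein-coding status came from GENCODE release 29, matched by identifier for 88.7% of rows, and no coordinate of it was used; promoters came from RefSeq. The RAB genes, roles, subfamilies and lists were chosen with earlier results of these data known. Genes named are the 15 highest means, those 2-fold apart, subfamily members, and of each pathway list the 3 highest, the lowest and up to 4 per direction that were 2-fold apart with a mean of 5 FPKM; list genes named for their partner RABs, and VIM, PMEL, TYR, KRT19 and the neighbours of RAB34, were chosen with their values seen. FAM116A, FAM116B, RIC1, RBSN and PECAM1 are listed symbols without a row. All but PECAM1 are other names of genes that were measured, as DENND6A, DENND6B, KIAA1432 and ZFYVE20. Alternatives were other thresholds, pseudocounts, filters, scalings and single libraries. Software was pandas 2.3.3 with numpy 2.4.6 under Python 3.11.15, and matplotlib 3.10.9 for plots.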

Additional observations from a re-analysis of the deposited data

How the results depend on the processing

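The number of RAB genes expressed in both libraries, 48, stayed between 35 (threshold of 5 FPKM) and 50 (0.5 FPKM) under 8 alternatives, with 47 when the lower bound had to reach 1 FPKM, and 49 in PJ alone. Leading paralogs by mean were also those of PJ alone in 18 of 18 subfamilies and of PF alone in 15. The 2-fold counts depend on scaling and pseudocount. With the median library ratio divided out, 3 RAB genes were higher and 3 lower, and the median log2 ratio was -0.035 in place of 0.19. With a pseudocount of 0.1 or none, 2 genes were lower (RAB26 and RAB3B) and 8 higher, with RAB3A and RAB36 added. The median was 0.21 in both cases. The median was 0.15 without a filter, 0.21 at a mean of 5 FPKM or more, and 0.18 without RAB34, an alternative chosen after seeing the data. For the 11 RAB genes furthest apart, none of these alternatives could change the sign, so its constancy shows nothing. Pseudocounts and filters keep the sign, and dividing out the median ratio moves a log2 ratio by at most 0.25. The 2-fold call could change: RAB10, RAB28 and RAB8A fell under 2-fold once the ratio was divided out. The 2-fold counts need both libraries, so neither could be left out there.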

Other observations

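Some RAB-related symbols fall outside the naming rule. RAB7L1, an older symbol of RAB29 and a relative of RAB32 and RAB38, had 3.49 FPKM in PF (bounds 2.93 to 6.18) against 12.1 in PJ (10.4 to 13.9), a log2 ratio of 1.55. The RAB-like gene RABL5, which encodes a subunit of intraflagellar transport, was at 17.7 and 34.9 FPKM, and RABL2A and RABL2B, near-identical copies whose separate values are uncertain, at 4.45 and 9.19 FPKM in PF against 9.02 and 16.6 in PJ. RABL6 (69.8 and 71.6) and RABL3 (12.3 and 13.6) differed little. The antisense RNA RAB11B-AS1 was at 1.33 and 3.34 FPKM while RAB11B was at 60.3 and 57.4. Of the pseudogenes, RAB43P1 was at 4.26 FPKM in PF (bounds 2.16 to 4.21) against 2.91 in PJ (1.47 to 2.82). Both estimates lay over their own upper bounds. RAB43 itself was at 1.76 (1.47 to 2.06) and 1.78 (1.38 to 2.17), so the bounds of both genes overlapped in PJ. RAB43P1 is among the genes that share stretches of 50 bases with RAB43, so their separate values are uncertain. RAB9AP1, RAB9AP3, RAB9AP4 and RAB9BP1 were listed at 0 in both libraries. These symbols were chosen after their values were seen.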
